A study of Mus musculus with 10 samples.

Results

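The proteasome genes described here were the genes whose symbol begins with Psm followed by a letter from a to g and a number. The 3 catalytic subunits of the immunoproteasome (Psmb8, Psmb9 and Psmb10) and 5 names marked as pseudogenes were left out of the 55 names that matched, which gave 47 genes of the 55487 in the table. RNA was sequenced from colonic intestinal epithelial cells (IECs) of WT and RhoB-/- mice, with 5 libraries per genotype, to ask what loss of the small GTPase RhoB does to the colonic epithelium. All mice were untreated, on the C57BL/6J background, and 6 to 8 weeks old as far as the study's methods give an age. The RhoB-/- mice lacked the gene in the whole body and were made at a model organism centre, while WT males were bought from another supplier. Genotype and origin of the mice therefore cannot be told apart, and the sex of the RhoB-/- mice is not given in the sources used here. The cells were released from the colon with EDTA and DTT and were not sorted, so lymphocytes lying within the epithelium could be included. The labels number the replicates without naming the mice, so p-values measure the spread between these libraries, which may be technical in part.

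The proteasome degrades proteins tagged with ubiquitin. Its barrel, the 20S core, is made of stacked rings of alpha and beta subunits, and Psmb5, Psmb6 and Psmb7 are the beta subunits that cut peptide bonds. The 19S cap binds ubiquitin chains and unfolds the substrate with a ring of ATPases. In cells exposed to interferon, Psmb8, Psmb9 and Psmb10 replace Psmb5, Psmb6 and Psmb7 in newly built cores, and a ring of Psme1 and Psme2, together called PA28, can open the core in place of the 19S cap and is best known for its part in making peptides for antigen presentation. The 20S core is put together with the help of chaperone pairs, one made of Psmg1 and Psmg2 and another of Psmg3 and Psmg4.

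Since PA28 is known as inducible by interferon, the genes whose promoter window holds the interferon response core are shown first, whether or not they belong to PA28. Windows of 300 bases, from 250 before to 50 after the annotated start, were read from RefSeq sequences on GRCm38.p6 for 39 of the 47 genes. The core GAAANNGAA, searched on both strands, was present in 16.7% of the 42 windows of these genes (a few have more than one start) and in 8.56% of the 32851 windows of all genes. The matches are descriptions of sequence and not sites of binding. Each line below gives 30 bases in the direction of the gene, 5′ to 3′, with the match in capitals.
Psme1, chr14:55578494-55578523, plus strand: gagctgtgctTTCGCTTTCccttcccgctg
Psmb3, chr11:97703262-97703291, plus strand: acagtgacttTTCACTTTCcgctttccata
Psmb4, chr3:94886942-94886971, minus strand: aaaggaccacTTCCGTTTCcggtgacgcta
Psmd4, chr3:95042674-95042703, minus strand: taaccaacctTTCCATTTCtgtggcgccta
Psmc2, chr5:21786729-21786758, plus strand: gtggggaagaGAAAGGGAAgacaccagcgg
Psmd9, chr5:123228021-123228050, plus strand: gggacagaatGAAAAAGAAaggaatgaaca
Psmg4, chr13:34162969-34162998, plus strand: gcgcgcatctGAAAGTGAAagagcgttccg

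Psme2, the member with the highest fold change, held none of the 4 motifs searched. The 238 bases before its first annotated exon are shown for that reason.
Psme2, chr14:55591114-55591351, minus strand: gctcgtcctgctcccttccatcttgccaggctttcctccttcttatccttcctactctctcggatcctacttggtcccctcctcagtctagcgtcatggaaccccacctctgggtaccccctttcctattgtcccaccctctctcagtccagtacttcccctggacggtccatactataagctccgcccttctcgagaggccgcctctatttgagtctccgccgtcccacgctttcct
No match says only that these letters are not in this window. The other motifs were CCAAT, found in 33.3% of the proteasome windows and 37.4% of all windows, the antioxidant response core TGACNNNGC (14.3% and 12.4%) and the STAT core TTCNNNGAA (4.76% and 8.3%). The antioxidant core stood in the windows of Psmb5, Psmb6, Psmc6, Psmd12, Psmd9 and Psme4.

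The values are TPM, a measure per transcript length that is relative to the rest of the library and keeps no sequencing depth, so no counting error can be given. Errors are the SD between libraries. The genotypes were compared with limma after adding 1 to each TPM and taking log2, for the 12870 genes whose mean reached 1 TPM, and a gene passed the test at a Benjamini-Hochberg adjusted p below 0.05 over all of them. Log2 fold changes are on this log2(TPM + 1) scale, RhoB-/- minus WT, which understates the change of low genes. Of the 47 proteasome genes, 44 entered this test. The median log2 fold change of all tested genes was -0.13. In bulk RNA, fewer cells of a type and less RNA per cell cannot be told apart.

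Rhob, the targeted gene, had 170.5 to 388.7 TPM in WT libraries and 0.09 to 0.57 TPM in RhoB-/- replicates 1 to 4. The library labelled RhoB-/- replicate 5 had 110.87 TPM, which goes against its label in part. It was kept in its group, and without it Psme1, Psme2 and Psmg2 passed the test as they did with it. The 8 epithelial markers were all abundant, from a WT mean of 199.8 TPM for Slc26a3 to 12756 TPM for Car1. All 8 had positive log2 fold changes, and 2 passed the test as higher without overlap, Krt20 at 1.17 (adjusted p = 0.00224, limma) and Vil1 at 0.65 (adjusted p = 0.00638, limma). Ptprc, carried by all leukocytes, had 1.24 to 2.65 TPM in WT and 3.72 to 9.64 TPM in RhoB-/- libraries (log2 fold change 1.18, adjusted p = 0.00321, limma). T cell markers were low but higher in RhoB-/- libraries, with 5 of 6 passing the test and a summed level of 7.87 to 19.3 TPM in WT and 48.3 to 56.1 TPM in RhoB-/- libraries. Cd79a, Cd79b, Ms4a1, Jchain and Mzb1, markers of B and plasma cells, were all below a mean of 1 TPM, with sums of 0.18 to 0.98 TPM and 0.99 to 12.2 TPM. Of 5 myeloid markers 3 were tested and 1 (Cd68) passed as higher, and of 7 stromal and endothelial markers 6 were below a mean of 1 TPM.

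The structural subunits of the proteasome did not pass the test in either direction, while both genes of PA28 rose and the core chaperone Psmg2 fell. Of the 44 tested proteasome genes, 2 were higher and 1 was lower in RhoB-/- mice. Among all tested genes, 21.2% passed the test, 7.73% as higher and 13.5% as lower. The study's threshold, an unadjusted p below 0.05 with a fold change above 1.5, was also applied to the limma fit. The same 3 proteasome genes passed, against 14.7% of all tested genes (6.37% as higher and 8.33% as lower). The study's own test was not repeated, so these shares differ in method from its counts. The median log2 fold change of the 44 genes was -0.03, and 30 of them (68.2%) had a negative value, against 65.4% of all tested genes. These signs depended on the scaling and on single libraries: centring the libraries turned the median to 0.08 and the sign of 22 genes, and leaving out RhoB-/- replicate 2 turned the median to 0.06 and the sign of 19. The libraries of the genotypes did not overlap for 2 of them, Psme1 and Psme2, against 14.5% of all tested genes.

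**Figure D1:**
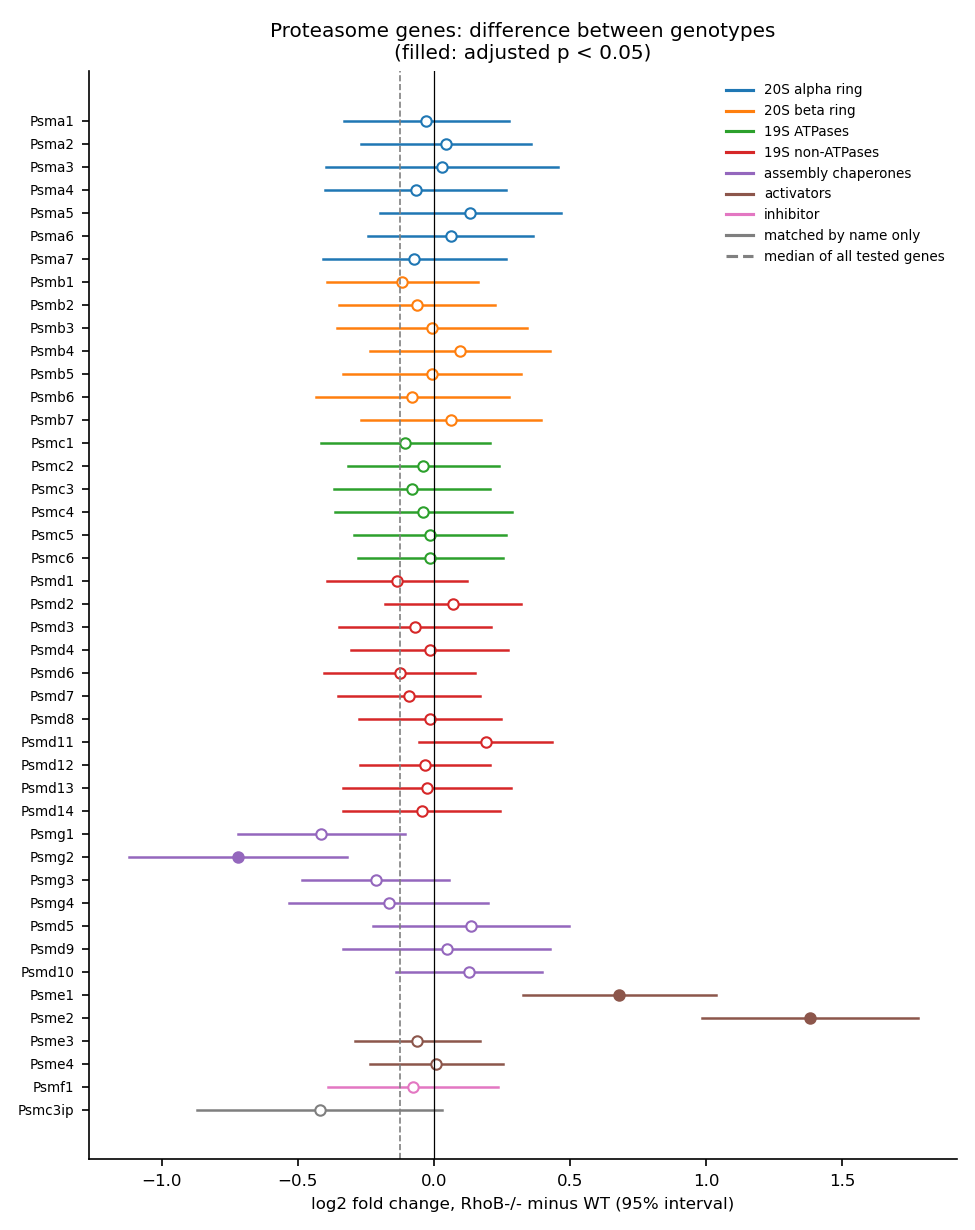
Each row is 1 of the 44 tested proteasome genes, coloured by its role. The point is the log2 fold change (RhoB-/- minus WT, on the log2(TPM + 1) scale), the line its 95% interval and a filled point an adjusted p below 0.05; the dashed line is the median of all tested genes, -0.13. The 31 subunits of the core and cap lie between -0.14 and 0.19, Psme1 and Psme2 lie far to the right and Psmg2 to the left.

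Psme2 (ENSMUSG00000079197, chr14:55587441-55591113, minus strand) encodes the beta chain of PA28. Its level was 162.15, 163.11, 203.04, 155.10 and 143.77 TPM in WT replicates 1 to 5. In RhoB-/- replicates 1 to 5 it was 383.65, 324.35, 615.85, 351.53 and 542.48 TPM. Every RhoB-/- library was above every WT library, and replicates 3 and 5 were the highest. The mean rose from 165.4 ± 22.4 TPM (SD, n = 5) to 443.6 ± 128.2 TPM (SD, n = 5), and limma gave a difference of 1.38 on the log2 scale with a standard error of 0.18 (adjusted p = 0.00039).

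Psme1 (ENSMUSG00000022216, chr14:55578123-55581529, plus strand) encodes the alpha chain of the same ring and lies 5911 bases from Psme2. Its level was 100.93, 124.98, 126.10, 112.35 and 107.06 TPM in the WT libraries. In the RhoB-/- libraries it was 178.09, 130.42, 259.53, 167.94 and 203.71 TPM. The groups did not overlap, but the lowest RhoB-/- library, replicate 2, was close to the highest WT library. By limma the difference was 0.68 on the log2 scale with a standard error of 0.16 (adjusted p = 0.0132). Without RhoB-/- replicate 3 it was 0.56, which still passed the test but not the study's fold threshold.

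The 2 chains did not move by the same amount. The ratio of Psme2 to Psme1 TPM within a library was 1.31 to 1.61 in WT and 2.09 to 2.66 in RhoB-/- libraries. This ratio was chosen after the values were seen and is given without a test. Psme1 and Emc9, on the opposite strand, overlap by 14 bases in the annotation, and although the study's methods mention an orientation mode for the alignment, how strand was treated in counting is not given in the sources used here.

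Of the 7 genes whose promoter window held the interferon response core, Psme1 passed the test and the other 6, with log2 fold changes of -0.17 (Psmg4) to 0.10 (Psmb4), did not. Among all tested genes 21.2% passed, 7.73% as higher.

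The other activators did not pass the test. Psme3, which forms a related ring in the nucleus, had 47.72, 45.81, 36.62, 44.77 and 39.41 TPM in the WT libraries. In the RhoB-/- libraries it had 39.34, 36.71, 47.18, 40.53 and 41.20 TPM. The groups overlapped, and the log2 fold change was -0.06 with a 95% interval from -0.29 to 0.17. Psme4, the single-chain activator PA200, had 22.73, 26.01, 18.79, 22.61 and 21.95 TPM in WT and 22.68, 18.69, 21.70, 24.04 and 25.70 TPM in RhoB-/- libraries. Its log2 fold change was 0.01 with an interval from -0.24 to 0.25. Psme2b, a copy of Psme2 whose reads could be shared with it, was at 0 in 4 of 5 WT libraries and 0.48 TPM in the other, and at 0.20, 0, 0.32, 0 and 0.13 TPM in the RhoB-/- libraries (two-sided p = 0.841 by an exact permutation test). The inhibitor Psmf1, also called PI31, was at 12.1 ± 1.39 TPM in WT and at 11.6 ± 2.62 TPM with RhoB absent (SD, n = 5 each), a log2 fold change of -0.08.

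**Figure D2:**
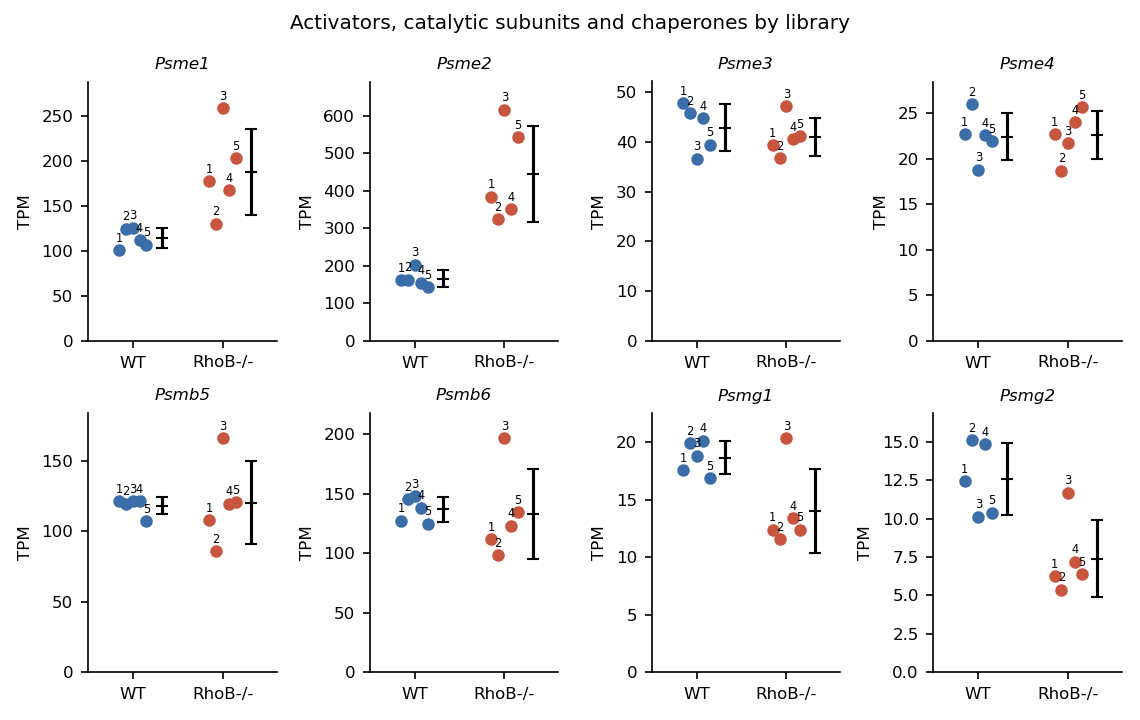
TPM of 8 proteasome genes in each library, on linear axes that start at 0. Points are libraries marked with their replicate number, and the bar beside each group is the mean with its SD (n = 5). RhoB-/- libraries of Psme1 and Psme2 lie above all WT libraries, those of Psme3, Psme4, Psmb5 and Psmb6 overlap with WT, and for Psmg1 and Psmg2 every RhoB-/- library except replicate 3 lies below the WT range.

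The 7 chaperones of proteasome assembly were lower in abundance than the subunits they help to place, with WT means of 9.7 TPM (Psmd9) to 23.9 TPM (Psmg4), and 1 of them fell. Psmg2 (ENSMUSG00000024537) had 12.42, 15.10, 10.13, 14.83 and 10.39 TPM in the WT libraries. In the RhoB-/- libraries it had 6.26, 5.38, 11.69, 7.20 and 6.40 TPM. In 4 of 5 RhoB-/- libraries the value was below every WT library, and replicate 3 lay within the WT range. By limma the difference was -0.72 on the log2 scale with a standard error of 0.18 (adjusted p = 0.0180). This call rested on single libraries: limma's adjusted p was 0.0515 without RhoB-/- replicate 1, 0.0523 without WT replicate 2 and 0.0587 without WT replicate 4.

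Psmg1, the partner of Psmg2, missed limma's threshold at -0.41 on the log2 scale, with a standard error of 0.14 (adjusted p = 0.0551). Its level was 17.59, 19.92, 18.83, 20.14 and 16.86 TPM in WT and 12.42, 11.56, 20.38, 13.39 and 12.40 TPM in RhoB-/- libraries. As for Psmg2, 4 of 5 RhoB-/- libraries were below every WT library, and replicate 3 was here above every one of them. Without replicate 3 limma gave -0.55 on that scale (adjusted p = 0.00235). Leaving out any other single library instead missed the threshold (adjusted p = 0.0702 to 0.128, limma). Psmg3 and Psmg4, which form the other pair, had log2 fold changes of -0.21 and -0.17 and did not pass. Psmg3 passed without replicate 3 (adjusted p = 0.0494, limma), but not without any other single library (adjusted p = 0.168 to 0.412, limma). The chaperones of the cap, Psmd5, Psmd9 and Psmd10, had values of 0.14, 0.05 and 0.13, none past the test. All 7 markers of proliferating cells had negative log2 fold changes. Of them, 3 (Mki67, Mcm2 and Mcm5) passed the test as lower in RhoB-/- mice, against 13.5% of all tested genes. The summed level of the 7 was 264.8 to 345.8 TPM in WT and 135.4 to 337.4 TPM in RhoB-/- libraries. As for Psmg1 and Psmg2, the highest of these sums in the RhoB-/- group was that of replicate 3, and whether proliferation had a part in these values was not tested.

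The 20S core has 16 genes among the members, of which 14 were tested and none passed. The catalytic subunit Psmb5, which carries the chymotrypsin-like activity, had 121.41, 119.79, 121.32, 121.63 and 107.26 TPM in the WT libraries. In the RhoB-/- libraries it had 108.09, 85.80, 166.35, 119.74 and 120.99 TPM. The WT values lay inside the RhoB-/- range, and the log2 fold change was -0.01 (interval from -0.33 to 0.32). Psmb6, with the caspase-like activity, had 127.18, 145.52, 147.90, 138.19 and 124.78 TPM in WT and 111.64, 98.60, 196.36, 123.09 and 134.29 TPM in RhoB-/- libraries, a log2 fold change of -0.08 (interval from -0.43 to 0.28). Psmb7, with the trypsin-like activity, had 99.47, 98.10, 106.47, 94.02 and 94.91 TPM in WT and 93.35, 75.07, 148.01, 106.15 and 104.81 TPM in RhoB-/- libraries, a log2 fold change of 0.06 (interval from -0.27 to 0.39). For all 3, RhoB-/- replicate 3 was the highest and replicate 2 the lowest of the 10 libraries.

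The structural beta subunits Psmb1, Psmb2, Psmb3 and Psmb4 had log2 fold changes of -0.12, -0.06, -0.01 and 0.10. The alpha subunits, which form the outer rings and the gate of the core, ranged from -0.07 for Psma7 and Psma4 to 0.13 for Psma5. Psma1, Psma2, Psma3 and Psma6 lay between them at -0.03, 0.04, 0.03 and 0.06. Although a core holds equal numbers of each of its subunits, their mRNA levels were unequal in both genotypes. Psmb3 had the highest mean (162.5 TPM in WT, 165.4 TPM in RhoB-/- mice) and Psma2 the lowest (37.8 and 39.8 TPM). The tissue-restricted core subunits were at or near 0: Psma8, known from the testis, was listed at 0 in all 10 libraries, and Psmb11, known from the thymic cortex, reached at most 0.04 TPM (two-sided p = 0.841 by an exact permutation test).

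The 19S cap gave the same count, with none of its 17 genes among the members passing. The 6 ATPases Psmc1, Psmc2, Psmc3, Psmc4, Psmc5 and Psmc6 had fold changes, on the log2 scale, of -0.10, -0.04, -0.08, -0.04, -0.02 and -0.01. Of the 11 other cap subunits, the scaffold Psmd1 had the lowest value, -0.14, and Psmd11 the highest, 0.19 (adjusted p = 0.240, limma). Psmd11 had 34.5 to 40.6 TPM in WT, and 4 of 5 RhoB-/- libraries were above that range. The scaffold Psmd2 had 0.07, the ubiquitin receptor Psmd4 had -0.02 and the deubiquitinase Psmd14, which removes the ubiquitin chain, had -0.05. Psmd3, Psmd6, Psmd7, Psmd8, Psmd12 and Psmd13 had -0.07, -0.13, -0.09, -0.01, -0.03 and -0.03. A miss of the threshold does not show equal levels: over the 31 tested subunits of core and cap, the 95% intervals reached from -0.43 to 0.47, so that differences of up to 1.38-fold lay inside them. Centring every library by the median of its deviations moved the median of all tested genes from -0.13 to -0.01. On that scale Psmd11 passed as higher with 0.30 (adjusted p = 0.00454, limma), and so did the cap chaperone Psmd10 with 0.24 (adjusted p = 0.0312, limma), beside 28.4% of all tested genes. After quantile normalization Psmd11 passed with 0.18 (adjusted p = 0.0323, limma) and Psmg1 with -0.35 (adjusted p = 0.0262, limma), beside 27.7% of all tested genes.

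The immunoproteasome subunits offered a comparison within the same libraries. Psmb8 had 17.13, 19.32, 22.97, 13.94 and 23.09 TPM in WT and 170.48, 87.44, 236.79, 133.18 and 150.77 TPM in RhoB-/- libraries. The ratio of Psmb8 to Psmb5, its counterpart in the standard core, was 0.164 ± 0.0395 in WT and 1.28 ± 0.227 in RhoB-/- mice (SD, n = 5 each). In every RhoB-/- library Psmb8 was thus above Psmb5, and in no WT library. Psmb9 over Psmb6 went from 0.111 ± 0.0158 to 0.414 ± 0.0704, and Psmb10 over Psmb7 from 0.832 ± 0.132 to 1.48 ± 0.103 (SD, n = 5 each). The differences of the log2 ratio, with 1 added to each TPM, were 2.91, 1.83 and 0.83, without overlap between genotypes for any of the 3 ratios. The exact permutation test gave a two-sided p = 0.00794 for each, the smallest that 5 libraries against 5 allow, and the same value adjusted over the 3 ratios. Psmb8, Psmb9 and Psmb10 each showed no overlap between genotypes on their own, as did 14.5% of all tested genes. They were chosen with earlier results of these data known, so this p was largely set in advance and adds no support. A plain TPM ratio within a library does not depend on the factor by which the library was scaled. Adding 1 to each TPM leaves the log2 ratio with some dependence on it. All 8 interferon response markers were also higher in RhoB-/- mice, with a summed level of 143.5 to 252.3 TPM in WT and 1107 to 2047 TPM in RhoB-/- libraries. Leukocytes also express Psme1, Psme2 and the immunoproteasome genes, and the part of the T cell RNA in these values was not tested.

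**Figure D3:**
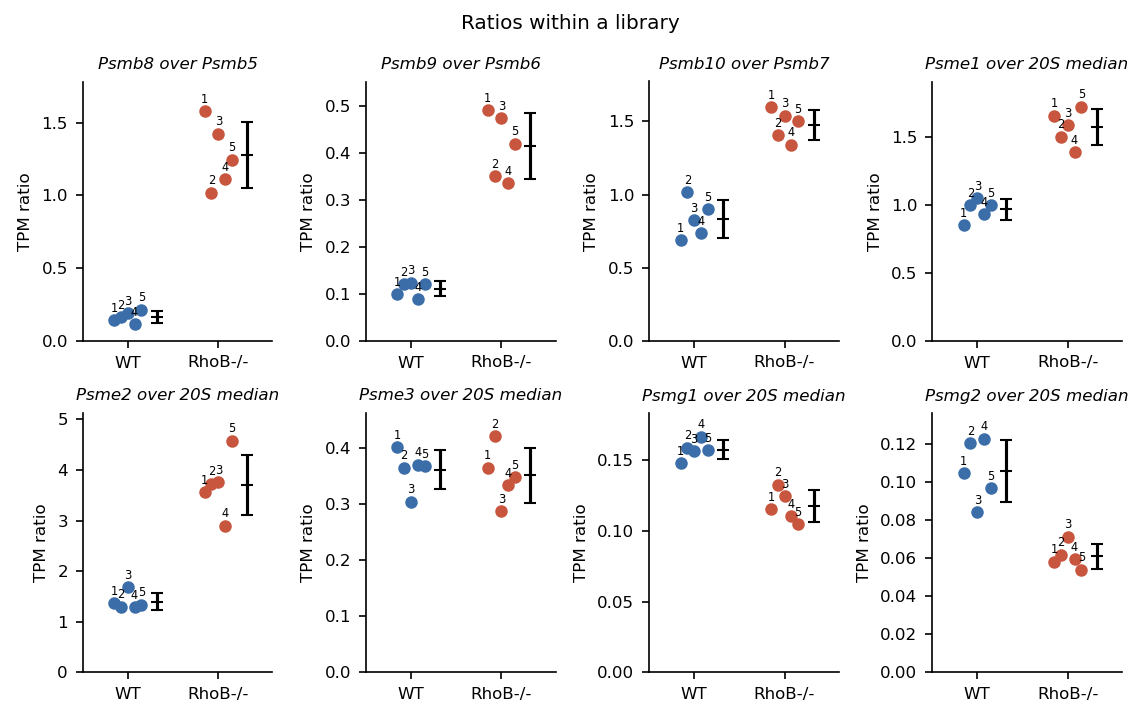
TPM ratios within a library, on linear axes that start at 0, for the immunoproteasome subunits over their standard counterparts and for 5 proteasome genes over the median of the 14 tested 20S subunits. Points are libraries marked with their replicate number, and bars are the mean with its SD (n = 5). The genotypes do not overlap in 7 of the 8 panels, and overlap for Psme3.

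A feature that the choice of genes did not use was a shared spread among the RhoB-/- mice. Replicate 3 was the highest and replicate 2 the lowest of the 5 RhoB-/- libraries for 41 of the 44 proteasome genes, and for all 31 subunits of the core and cap; the exceptions were Psme4, Psmd5 and Psmg4. The same order was seen for 30.0% of all tested genes. The median ratio of replicate 3 to replicate 2 was 1.73 over the proteasome genes and 1.30 over all tested genes. The median SD on the log2 scale was 0.11 in WT and 0.30 in RhoB-/- mice for the proteasome genes, against 0.20 and 0.24 for all tested genes. The genes of 1 library are not independent of each other, so these counts describe 2 libraries and not a property of the genotype.

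**Figure D4:**
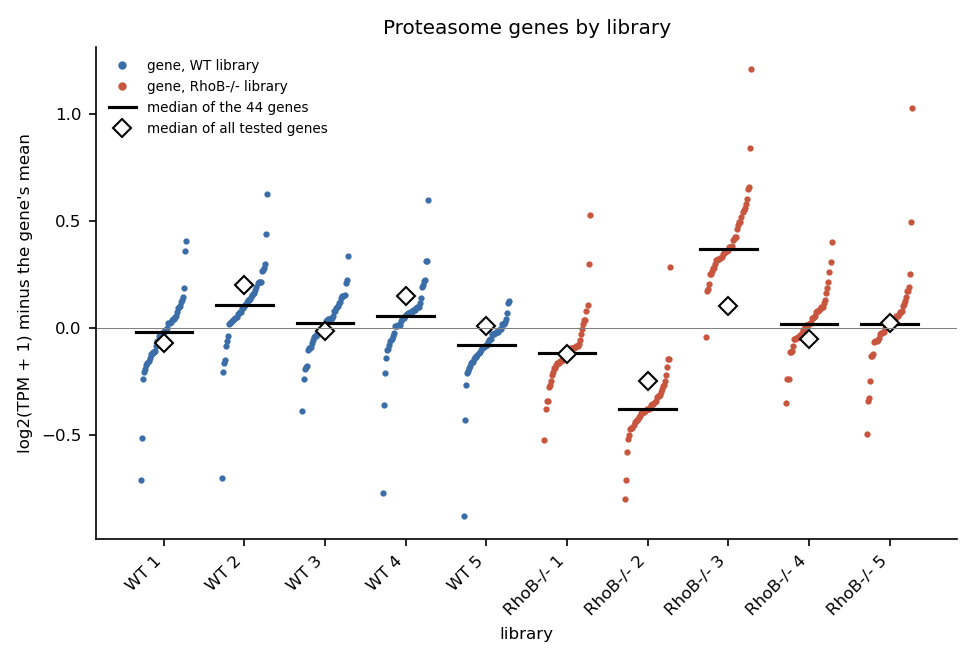
For each library, the difference between log2(TPM + 1) and the mean of that gene over all 10 libraries. Points are the 44 proteasome genes in rising order, the bar is their median and the diamond the median of all tested genes. The bar is at 0.37 in RhoB-/- replicate 3, above the diamond at 0.10, and at -0.38 in replicate 2, below the diamond at -0.25.

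The share of TPM taken by genes of the mitochondrial genome moved with this order. It was 10.3% in RhoB-/- replicate 3, the lowest of the 10 libraries, 22.4% in replicate 2, and 12.1% to 19.4% in the other RhoB-/- libraries. In WT libraries it was 17.5% to 26.5%. With these genes left out, the libraries were rescaled. The median ratio of replicate 3 to replicate 2 was then 1.49 for the proteasome genes and 1.12 for all tested genes. Rescaling changes every gene of a library by the same factor, so it could not alter how these medians stand to each other. The summed TPM of the proteasome genes was 2982 to 3380 in WT and 2642 to 4746 in RhoB-/- libraries, the extremes of the latter being replicates 2 and 3.

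The activators and core chaperones were also expressed relative to the median of the 14 tested 20S subunits of the same library. This scale was chosen after the data were seen. Psme1 was 0.965 ± 0.0767 of that median in WT and 1.57 ± 0.131 in RhoB-/- mice, and Psme2 was 1.40 ± 0.167 and 3.71 ± 0.599 (SD, n = 5 each). Psmg1 was 0.158 ± 0.00663 and 0.118 ± 0.0112, and Psmg2 was 0.106 ± 0.0162 and 0.0610 ± 0.00648, with no overlap between genotypes for either. Psme3 was 0.362 ± 0.0354 and 0.352 ± 0.0486, and Psme4 was 0.189 ± 0.0204 and 0.195 ± 0.0355 (SD, n = 5 each), both with overlap. With the libraries scaled in this way and the fit repeated over all genes, 4 proteasome genes passed the test, against 19.2% of all tested genes: Psme1 and Psme2 as higher, Psmg2 with -0.71 on the log2 scale (adjusted p = 0.00299, limma) and Psmg1 with -0.40 (adjusted p = 0.0129, limma) as lower. The genotypes then did not overlap for 5 proteasome genes, the fifth being Psmc1, against 13.4% of all tested genes. With RhoB-/- replicates 2 and 3 both left out instead, the same 4 genes passed, with 25.3% of all tested genes. This omission was also chosen after the data were seen. It removes replicate 3, the library in which Psmg1 and Psmg2 were not below the WT range, so it is no separate support for their fall.

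Partners of the proteasome whose names do not match the pattern were read from the same fit, in which 21.2% of all tested genes passed. Of 20 genes for cap proteins, deubiquitinases, assembly factors, shuttles, ligases, transcription factors and other partners, none rose and 1 fell. At the looser cut of an unadjusted p below 0.05, 3 of the 20 passed, against at least 21.2% of all tested genes. Adrm1 and Sem1, cap subunits under other names, had log2 fold changes of 0.19 and 0.15 and did not pass. The gene that fell was Ubqln2, which carries ubiquitinated proteins to the proteasome. Its level was 11.1 ± 1.69 TPM in the WT group and 7.15 ± 0.934 TPM in the RhoB-/- group (SD, n = 5 each), without overlap. By limma the difference was -0.57 on the log2 scale, with a standard error of 0.12 (adjusted p = 0.00846). Pomp, a chaperone of core assembly, had 130.0 ± 9.15 TPM in the WT group and 162.8 ± 25.1 TPM in the RhoB-/- group (SD, n = 5 each), with 4 of 5 RhoB-/- libraries above every WT library. Its difference of 0.31 on the log2 scale did not pass limma's test (adjusted p = 0.0813), and Pomp was named after its values were seen. Of 14 genes for ubiquitin itself, its activating enzymes and the p97 unfoldase, none passed the test. In this set 1 had an unadjusted p below 0.05, again against at least 21.2% of all tested genes.

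Psmc3ip, a recombination factor that shares only its name with the cap ATPases, matched the name pattern and is no part of the proteasome. Its level was 2.66 ± 0.648 TPM in the WT group and 1.77 ± 0.681 TPM in the RhoB-/- group (SD, n = 5 each), and the difference of -0.42 on the log2 scale did not pass limma's test (adjusted p = 0.163). In all, 10 of the 47 genes overlap another gene with a mean of at least 1 TPM in the annotation, among them Psmb7 with Nek6, Psmd9 with Hpd, Psmd5 with Cutal and Psmd13 with Sirt3, and their values are uncertain to that extent.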

How the data were processed

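The deposited table gives TPM per gene and library. To make it, the authors trimmed paired-end reads (SeqPrep, Sickle), aligned them to the genome (HISAT2), assembled transcripts (StringTie) and estimated abundance by RSEM. The submitters' processing notes also name edgeR and GRCm38.p6. Versions are not given in the sources used here. The columns sum to 971419 to 993229, and depth is unknown. Genotype came from the labels. The proteasome genes and all gene lists were chosen with earlier results of these data known.

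The genotypes were compared with limma 3.58.1 in R 4.3.3 (lmFit, eBayes with trend) on log2(TPM + 1), for genes whose mean reached 1 TPM, with Benjamini-Hochberg adjustment. Genes below that filter and the 3 ratios were tested by exact permutation over all 252 labelings, two-sided. In simulated data for this comparison, run on 12870 genes, 21% of genes changed by a log2 fold of 0.5 and 79% of those changed by 1 were recovered, and 0.99% of the calls were false. Only 100 genes were changed at each size, with noise independent between genes and equal in both genotypes. In the real data 21.2% of genes passed, spread was larger in RhoB-/- libraries and many genes shifted together. These rates therefore need not hold here. All proteasome genes are named; values by library are given for the catalytic subunits, the activators, genes past the adjusted threshold and, chosen after its values were seen, Psmg1. Positions are from GENCODE release M21 on GRCm38, promoter windows from RefSeq.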

Additional observations from a re-analysis of the deposited data

Results flagged for a closer look

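In each group of 5 libraries, a value was looked at again where its gap to the nearest other value was over 0.71 of the range (Dixon's test). This was met in 5 of 95 groups, where chance would give 4.75 at 1 in 20. Genes below a mean of 1 TPM are not among these 5, although the WT values of Psme2b and Psmb11 also meet the rule. RhoB-/- replicate 3 stood above the other RhoB-/- libraries for Psmg1 (20.38 TPM) and Psmg2 (11.69 TPM), the core chaperones that were lower in the other RhoB-/- libraries. WT replicate 5 stood below the other WT libraries for Psmb5 (107.26 TPM) and Psmc2 (41.98 TPM). The library labelled RhoB-/- replicate 5 stood apart for Rhob itself (110.87 TPM).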

How the results depend on the processing

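Psme1 and Psme2 passed the test under every alternative tried, with an adjusted p of 0.000562 to 0.0387 (limma) for Psme1, and no result changed direction past a threshold. The count of proteasome genes passing, 3 in the main comparison, was 5 with centred libraries (4 higher), 5 with quantile normalization (2 lower, with Psmd11 and Psmg1 added) and 5 without mitochondrially encoded genes (3 lower, with Psmg1 and Psmg3 added). The lower ones numbered 0 without a filter on TPM (Psmg2, adjusted p = 0.0503, limma), 2 at a mean TPM of at least 5, and 2 with each alternative chosen after seeing the data, the 20S scaling (5 not overlapping) and leaving out RhoB-/- replicates 2 and 3 (7 not overlapping). Leaving out each library in turn gave 2 to 5 passing and 0 to 3 lower. It gave 1 to 2 higher at the study's threshold and 2 to 5 not overlapping. There were 5 passing and 5 not overlapping without RhoB-/- replicate 3, and 4 not overlapping without replicate 2. Non-overlap is easier to meet with fewer libraries. Its share of all tested genes is not given where libraries were left out, so these counts are no result about the proteasome genes. Among all tested genes, 2729 passed in the main comparison and 1895 to 4724 under the other settings. With 1 library left out it was 1576 to 3960. The counts of proteasome genes moved beside these, and the causes were not tested.

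Libraries that share a replicate number come from mice of different genotypes, and same-number correlations were -0.0874 to 0.0720, which gave no sign of pairing. Whether libraries of the same number were prepared or sequenced together is not given in the sources used here. A replicate block left the calls of the proteasome genes unchanged, and moved the genes called lower among all tested from 1734 to 1059. With the block, the log2 ratio differences of 2.91, 1.83 and 0.83 had p = 0.0625 by an exact sign-flip permutation test, the smallest that 5 pairs allow. Depth is unknown, so counting error at low TPM, as for Psme2b and Psmc3ip, could not be given.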
